A study of Mus musculus with 32 samples.

Results

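Transcripts of 5 genes that mark naive mouse embryonic stem cells (ESCs), *Zfp42* (which encodes REX1), *Tcl1*, *Tdh*, *Alpl* and *Dppa3*, were followed by RNA-seq through inhibitor withdrawal and in cells lacking *Etv5*, *Rbpj* and *Tcf7l1* (*Tcf3*). The genes were chosen by name, as the rows of the count table that carry these symbols, 5 of 51826 genes, and all 5 passed the filter on low counts. The 32 libraries fall into 11 conditions with 3 libraries each, except *Etv5*-KO at 16 h, which has 2. All the cells are RGd2 ESCs or derive from them and carry the Rex1::GFPd2 reporter, a short-lived GFP under control of the *Zfp42* locus, so that counts on *Zfp42* come from a locus with a modified allele, and gene-level counts do not separate the alleles. RGd2 cells, the controls, were sampled in 2i (an inhibitor of MEK with the GSK3 inhibitor CHIR99021, CH, in serum-free N2B27 medium), after 5 passages in 2i (2ip5), after 2 passages in CH alone (CHp2), and 16 h and 72 h after moving to N2B27 without inhibitors (N16h, N72h). *Rbpj*-KO and *Etv5*-KO cells were sampled in 2i and at N16h, ER-dKO cells, which lack *Etv5* and *Rbpj*, after 5 passages in CH (CHp5), and ETR-tKO cells, which lack *Tcf7l1* as well, after 5 passages in N2B27 (Np5). Each mutant was made by CRISPR/Cas9 and is represented by separate clonal lines (the 3 ETR-tKO lines include a pair whose clone names share the prefix Tc1), whereas each RGd2 condition has 2 libraries of the parental line and 1 of a clonal subline, so that p-values against RGd2 measure the spread between these samples, which may in part be technical.

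In the naive state, held in 2i, ESCs express a network of transcription factors and a set of downstream markers that are lost when the inhibitors are removed and the cells move to formative pluripotency. REX1 is a zinc finger protein of the YY1 family and the standard reporter of this state, although ESCs do not need it to self-renew. TCL1 binds the AKT kinases and raises their activity. TDH is a mitochondrial enzyme that starts the breakdown of threonine to glycine and acetyl-CoA, and mouse ESCs are unusually dependent on threonine. ALPL is the tissue-nonspecific alkaline phosphatase behind the classical stain for undifferentiated colonies. DPPA3 (Stella, PGC7) is a maternal and germline protein that protects DNA methylation in the zygote by shielding it from TET3 and interferes with the maintenance factor UHRF1, and in ESC cultures it is known to be present in some cells and absent from others.

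The genes lie on 5 chromosomes. On GRCm38, *Zfp42* (ENSMUSG00000051176.6) spans chr8:43295063-43306980, *Tcl1* (ENSMUSG00000041359.14) chr12:105216750-105222793, *Tdh* (ENSMUSG00000021953.14) chr14:63492347-63509092 and *Alpl* (ENSMUSG00000028766.10) chr4:137741733-137796384, all on the minus strand, and *Dppa3* (ENSMUSG00000046323.8) spans chr6:122626410-122630272 on the plus strand. The sequence just upstream of the start sites is shown because the deleted genes encode DNA-binding factors: RBPJ binds TGGGAA, TCF7L1 recognises the TCF/LEF core CTTTG, and ETV5 binds ETS sites, searched here as CCGGAA. The letters ATTTGCAT, the octamer recognised by POU factors such as OCT4, were added to the search after the *Zfp42* sequence had been read. The sequences are RefSeq promoter windows (GRCm38.p6, minus strand, written 5′ to 3′), with every match on either strand in capitals. They end next to the RefSeq start, except that of *Tcl1*, printed only as far as the gene in the deposited annotation (194 of 250 bases). They cover chr8:43307010-43307259 for *Zfp42*, chr12:105222794-105222987 for *Tcl1*, and chr4:137796385-137796634 and chr4:137766476-137766725 for both start sites of *Alpl*.
Zfp42: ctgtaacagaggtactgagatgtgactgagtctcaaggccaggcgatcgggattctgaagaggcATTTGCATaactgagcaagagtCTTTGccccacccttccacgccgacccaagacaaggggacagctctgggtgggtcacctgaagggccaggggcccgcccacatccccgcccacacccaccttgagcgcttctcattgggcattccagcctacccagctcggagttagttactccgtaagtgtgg
Tcl1: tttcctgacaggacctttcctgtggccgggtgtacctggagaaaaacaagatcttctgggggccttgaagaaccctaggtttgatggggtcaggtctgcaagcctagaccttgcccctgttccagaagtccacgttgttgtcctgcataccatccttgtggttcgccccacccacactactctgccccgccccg
Alpl, first start: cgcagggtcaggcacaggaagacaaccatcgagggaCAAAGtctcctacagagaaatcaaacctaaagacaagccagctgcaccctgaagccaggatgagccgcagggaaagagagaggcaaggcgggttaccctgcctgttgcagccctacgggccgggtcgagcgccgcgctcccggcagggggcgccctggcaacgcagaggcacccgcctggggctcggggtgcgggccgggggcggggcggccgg
Alpl, second start: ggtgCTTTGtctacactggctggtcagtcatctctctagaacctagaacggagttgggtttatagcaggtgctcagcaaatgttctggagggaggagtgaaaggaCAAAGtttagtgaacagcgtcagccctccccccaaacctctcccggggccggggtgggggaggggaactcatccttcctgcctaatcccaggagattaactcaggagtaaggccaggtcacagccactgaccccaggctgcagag

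The *Zfp42* window held the octamer 186 bases and CTTTG 164 bases before the start site. The first *Alpl* window held CTTTG on the opposite strand 214 bases before the start, and the second held it 246 bases before the start and on the opposite strand 145 bases before it. No searched letters occurred in the *Tcl1* window, of which all 250 bases were searched. Neither TGGGAA nor CCGGAA occurred in the windows of these 3 genes, and no matches overlapped. Among 32851 mouse windows of 250 bases, TGGGAA occurred in 21.6%, CTTTG in 48.6%, CCGGAA in 12% and ATTTGCAT in 1.6%. These matches describe the letters only and were not tested as binding sites.

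Gene counts per library ranged from 5986857 (RGd2 2i replicate 33, the clonal subline) to 71439411, with a median of 29940141, and 18892 genes were tested in 1 model of all libraries. That shallowest library also stood apart from the other 2i libraries, with a chi-square per gene of 44.33 and 43.28 against them where they differed from each other by 8.433. Levels are given as counts divided by a size factor from the ERCC spike-ins (normalized counts), which follow RNA output relative to the spike-in, and, between genes, as FPKM, which is per exonic length and per total gene count. A gene was called when its adjusted p was under 0.05 and its mean FPKM was at least 1 in either group, and shares of all genes called are of the tested genes above that minimum. Under this scaling the median gene itself shifted between conditions, by −0.24 (log2) from RGd2 2i to N16h and by −0.37 from 2i to 2ip5 and by less than 0.24 in either direction in the other direct comparisons, and that median is given beside each comparison. The embryonic stem cell markers *Pou5f1*, *Sox2*, *Nanog* and *Sall4* were all above 1 FPKM in every condition and summed to between 454 and 1115 FPKM per library. The targeted transcripts were still detected in their mutants. *Rbpj* was 12.4 FPKM in RGd2 2i and 3.16 in *Rbpj*-KO 2i, *Etv5* was 135 and 21.6 in RGd2 and *Etv5*-KO 2i, and *Tcf7l1* was 5.74 in RGd2 2ip5 and 0.795 in ETR-tKO. In ER-dKO *Rbpj* ranged from 3.25 to 9.88 FPKM, so that 1 line lay inside the range of RGd2 2ip5 (9.80 to 11). In these bulk libraries, fewer expressing cells and less RNA per cell cannot be told apart.

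**Figure D1:**
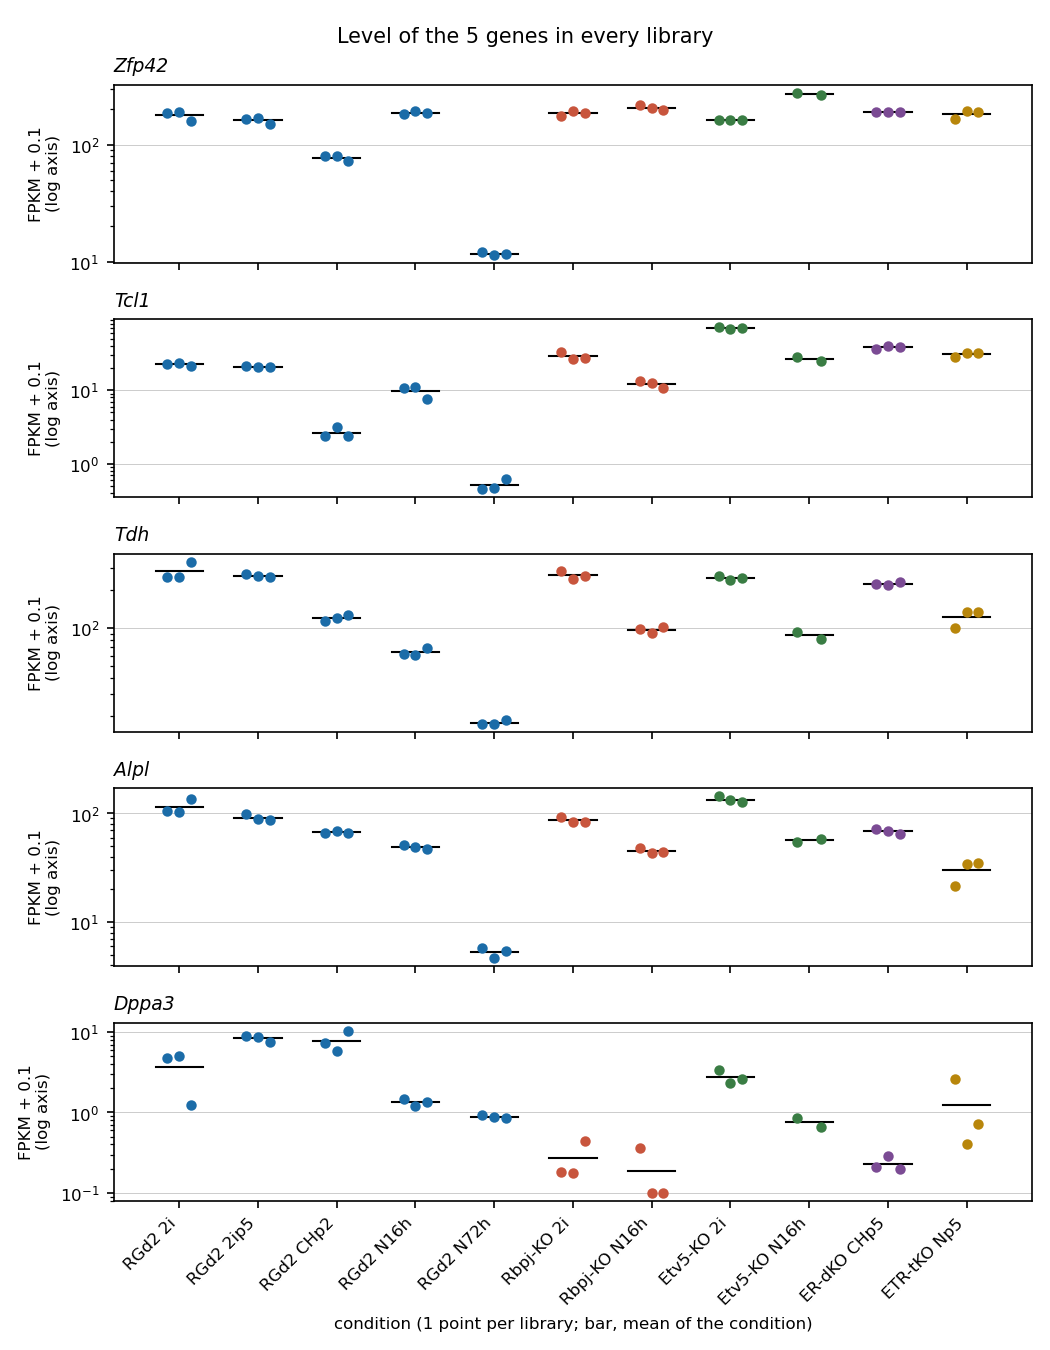
FPKM plus 0.1 (log axis) of the 5 genes in each of the 32 libraries, by condition, with a bar at the mean of each condition. *Zfp42* and *Tdh* sit above 100 FPKM in most conditions, all genes are low in RGd2 N72h, and *Dppa3* is lowest in *Rbpj*-KO and ER-dKO.

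In RGd2 2i the 5 genes differed widely in level. *Tdh* had 282 ± 47.1 FPKM (SD, n = 3), *Zfp42* 179 ± 16.8, *Alpl* 115 ± 18.4, *Tcl1* 22.5 ± 0.990 and *Dppa3* 3.59 ± 2.14. The order of the conditions differed from gene to gene. The normalized count of *Zfp42* was highest in *Etv5*-KO N16h, 0.48 (log2) above the next condition (adjusted p = 0.00385). Adjacent conditions from the second to the ninth place did not differ past the threshold, and only RGd2 CHp2 and N72h stood below them. Places further apart in that run could differ, as ER-dKO did from RGd2 2ip5 (0.49, adjusted p = 5.28e-04). *Tcl1* was highest in *Etv5*-KO 2i, 0.76 above ER-dKO (adjusted p = 3.10e-07). For *Tdh* the top places were held by RGd2, *Rbpj*-KO and *Etv5*-KO 2i, ER-dKO and RGd2 2ip5 with no difference past the threshold between neighbours, followed by a step of 0.84 down to ETR-tKO (adjusted p = 3.92e-08). The ends of that run did differ, with RGd2 2ip5 against 2i at −0.40 (adjusted p = 0.00331). *Alpl* was highest in *Etv5*-KO 2i and RGd2 2i, which did not differ (0.09, adjusted p = 0.619), and ETR-tKO was the lowest but for RGd2 N72h. The order of *Dppa3* was unlike the others, with RGd2 CHp2 and 2ip5 at the top and *Rbpj*-KO 2i, ER-dKO and *Rbpj*-KO N16h at the bottom, below even RGd2 N72h, although no neighbouring places below RGd2 N16h differed past the threshold.

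The first comparison asked which markers had already changed 16 h after removal of the inhibitors from RGd2 cells. *Tcl1*, *Tdh*, *Alpl* and *Dppa3* fell and *Zfp42* was not called. Of the 11748 tested genes above 1 FPKM in either group, 41.0% were called lower and 8.95% higher, with a median of −0.24 (log2), so that 4 of 5 genes lower stood beside a common fall. *Zfp42* had normalized counts of 11681, 9865 and 7264 in 2i and 8622, 8947 and 8267 at N16h. The groups overlapped, the N16h libraries lying inside the range of 2i, and the difference was −0.17 (log2, SE 0.11, interval −0.39 to 0.05, adjusted p = 0.221). Without the shallow 2i replicate 33, *Zfp42* was called lower (−0.32, adjusted p = 0.00555), and with TMM or size factors from the genes in place of the spike-ins the sign turned (0.06 and 0.07). *Tdh* moved most. Its normalized counts went from 22059, 18354 and 21238 to 4071, 3914 and 4301, a fall to 19.9% of the level in 2i (log2 −2.33, SE 0.12, adjusted p = 3.08e-20). *Tcl1* went from 1388, 1191 and 957 to 496, 485 and 328 (−1.46, SE 0.13, adjusted p = 3.22e-12). *Alpl* went from 14210, 11405 and 13264 to 5157, 4843 and 4456 (−1.43, SE 0.13, adjusted p = 3.52e-12). None of these 3 genes had overlapping groups. *Dppa3* had 137, 123 and 24.2 in 2i and 31.1, 24.0 and 26.6 at N16h. The low 2i value was replicate 33, with 6 reads, and it lay among the N16h libraries, yet the fall was called (−2.13, SE 0.33, adjusted p = 7.04e-07), also without replicate 33 (−2.26). The sum of 4 trophoblast markers was 10.7 to 15 FPKM per library in 2i and 1.35 to 1.5 at N16h, with *Elf5* at 0 in both. That of 4 mesendoderm markers went from 8.23 to 11.7 down to 1.63 to 2.10. That of 5 neural markers went from 48.1 to 57.4 down to 16.5 to 20.8, but such a sum can rest on 1 gene. Here it was mostly *Tubb3* (mean FPKM 48.6 to 15.1), while *Sox1* (0.147 to 1.13) and *Pax6* (0.101 to 1.45) rose. Of the 4 neural genes above 1 FPKM, 2 were called higher and 2 lower. The part of these lists in the falls was not tested.

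After 72 h all 5 genes were far below RGd2 2ip5, where 22.8% of all genes were called lower and 34.1% higher (median 0.09). *Zfp42* had normalized counts of 505, 536 and 512 against 6773, 7618 and 6443, a level of 7.45% (log2 −3.75, SE 0.13, adjusted p = 2.37e-25). *Tcl1* had 14.5, 17.2 and 22.5 against 851, 922 and 854, the largest fall of the 5 genes (−5.52, SE 0.24, adjusted p = 8.81e-23). The remaining levels at N72h were 7.02% of 2ip5 for *Tdh*, 5.84% for *Alpl* and 9.85% for *Dppa3*. *Tdh* had 1004, 1127 and 1136 against 15169, 16297 and 15056 (−3.83, adjusted p = 1.96e-26), and *Alpl* had 512, 459 and 507 against 8677, 8558 and 8057 (−4.09, adjusted p = 1.23e-24). *Dppa3* had 16.6, 17.2 and 15.8 against 172, 183 and 149 (−3.34, SE 0.37, adjusted p = 1.95e-10). For none of the genes did the groups overlap. Taking RGd2 2i as the reference kept all 5 calls. Markers of other cell types also moved at N72h, the summed FPKM per library of 5 primitive endoderm markers being 4.46 to 14.1 against 0.429 to 0.861, and of the neural markers 77.0 to 92.4 against 23.4 to 25.8, while the mesendoderm sum was 0.670 to 0.959 against 8.84 to 10.1 and the trophoblast sum 0.679 to 0.784 against 16.9 to 23.8, and their part in these results was not tested. The summed FPKM of 3 fibroblast markers was at most 2.97 in any library.

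Between 16 h and 72 h the order of loss differed from gene to gene. From N16h to N72h, where 31.0% of all genes were called lower (median −0.003), 4 of the 5 genes fell. *Zfp42* made nearly its whole fall in this interval (log2 −4.06, SE 0.13, adjusted p = 1.41e-26), as did *Tcl1* the larger share of its own (−4.53, SE 0.25, adjusted p = 2.42e-19). *Alpl* fell by 3.28 on the log2 scale (adjusted p = 8.02e-22), and *Tdh*, which had lost most of its signal by 16 h, fell by 1.91 (adjusted p = 2.80e-17). *Dppa3* was at −0.72 (interval −1.69 to 0.26, adjusted p = 0.222), from 24.0 to 31.1 normalized counts at N16h to 15.8 to 17.2 at N72h. The N16h libraries, like those of 2i and of the single mutants, carry library numbers from 17 to 33 and the others 1 to 15. The labels give no meaning to this numbering. A legend of the study marks cells expanded in CH with the cytokine LIF before a move to 2i, but its words do not list the samples. This comparison crosses the number sets, and a difference between the sets cannot be told apart from time. N16h against 2i and N72h against 2ip5 each stay within a set. For other experiments the study counts N72h from withdrawal of CH and LIF, so N72h and 2ip5 may also differ in starting culture.

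The same divide separates the 2i cultures. Against RGd2 2i, 2ip5 was lower for *Zfp42* (log2 −0.48, adjusted p = 8.30e-04), *Tcl1* (−0.47, adjusted p = 0.00402), *Tdh* (−0.40, adjusted p = 0.00331) and *Alpl* (−0.62, adjusted p = 2.28e-04), but 53.3% of all genes were called lower and the median gene was at −0.37. Relative to that median the differences were small, and with TMM only *Alpl* among these 4 genes remained called. *Tcl1* also lost its call without 2i replicate 31 (−0.33, adjusted p = 0.0926). *Dppa3* had 172, 183 and 149 normalized counts in 2ip5 and 137, 123 and 24.2 in 2i (0.50, adjusted p = 0.124), and was called higher with TMM (0.87, adjusted p = 0.0241). The sum of the neural markers was 23.4 to 25.8 FPKM per library in 2ip5 and 48.1 to 57.4 in 2i. That of the trophoblast markers was 16.9 to 23.8 and 10.7 to 15, and that of 4 germ cell markers 20.2 to 25.9 and 10.9 to 17.2. Of the trophoblast markers *Tfap2c* was higher in 2ip5 (mean 16.8 against 7.97) and *Cdx2* lower (2.46 against 4.58). Of the germ cell markers, 2 were called higher and 1 lower. *Nanos3* and *Prdm1* had higher means in 2ip5 and *Dazl* a lower one. The part of these lists in the values was not tested.

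CH alone for 2 passages asked what GSK3 inhibition keeps when MEK is no longer inhibited. Against 2ip5, *Zfp42*, *Tcl1* and *Tdh* were lower, 3 of 5 genes where 13% of all genes were called lower and 27.3% higher (median 0.12). *Tcl1* had 113, 139 and 103 normalized counts, 13.5% of the level in 2ip5 (log2 −2.86, SE 0.19, adjusted p = 5.29e-16). *Zfp42* had 4021, 3620 and 3253 (52.3%; −0.94, SE 0.12, adjusted p = 1.07e-08) and *Tdh* 7965, 7580 and 7963 (50.5%; −0.99, SE 0.11, adjusted p = 1.35e-09). Their groups did not overlap. *Alpl* had 7146, 6689 and 6444 against 8677, 8558 and 8057, with no overlap but just short of the threshold (−0.32, SE 0.13, adjusted p = 0.0507), and it was called lower with TMM (−0.50, adjusted p = 2.74e-04) and with the cell line as a replicate block (−0.32, adjusted p = 0.0396). *Dppa3* had 170, 123 and 220, around the same mean as in 2ip5 (−0.00, interval −0.52 to 0.51, adjusted p = 0.994). The sum of the mesendoderm markers, nearly all of it *T*, was 69.9 to 73.4 FPKM per library in CHp2 and 8.84 to 10.1 in 2ip5, and its part in these values was not tested.

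**Figure D2:**
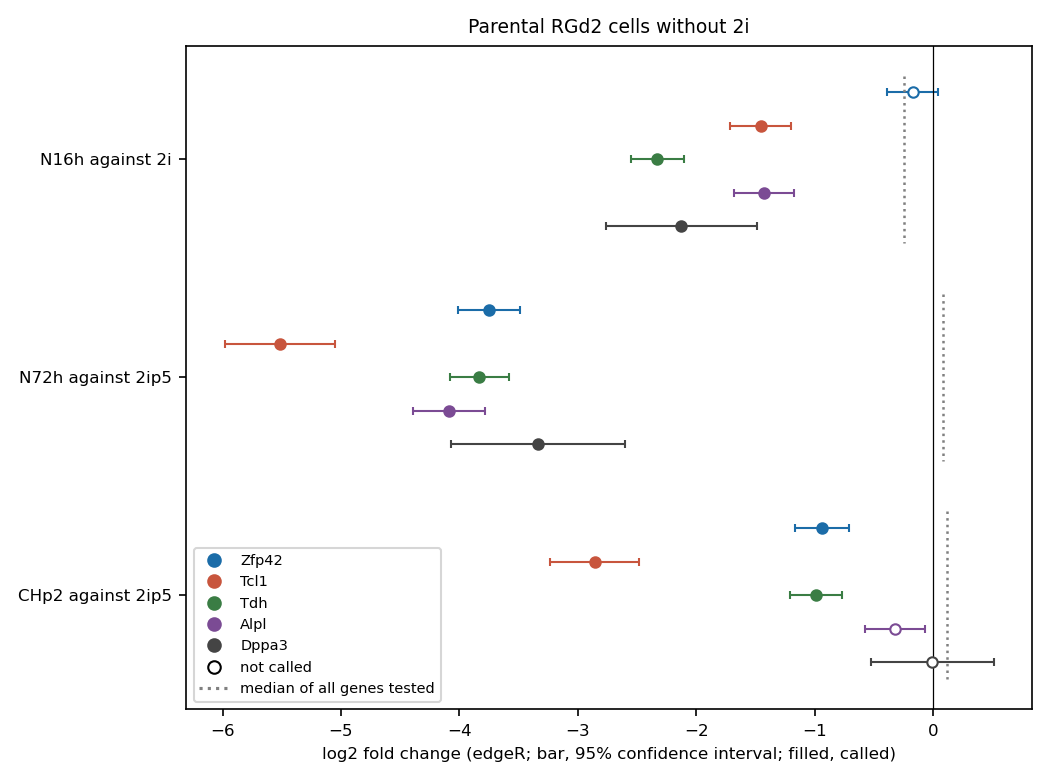
Log2 fold change with 95% interval of the 5 genes in RGd2 cells for N16h against 2i, N72h against 2ip5 and CHp2 against 2ip5, with filled points for called genes and a dotted line at the median of all genes. *Zfp42* lies at −0.17 at N16h and −3.75 at N72h, and *Dppa3* at −0.00 in CHp2.

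The other genes of the naive network gave a scale for these changes. Of 12 naive transcription factors, 10 were called lower and 1 higher at N16h (median log2 −1.75), led downwards by *Prdm14* (−2.83) and *Tfcp2l1* (−2.49), with *Nr0b1* higher (0.90). At N72h against 2ip5, 11 of the 12 were lower (median −3.80), led by *Nr5a2* (−6.08) and *Prdm14* (−5.33), and in CHp2 11 of the 12 were lower (median −1.19). Of 12 formative genes, 10 were higher at N16h (median 1.56, *Pou3f1* 5.27 and *Etv4* 4.47) and 10 at N72h (median 3.19, *Pou3f1* 7.73 and *Fgf5* 5.36). Of 7 general pluripotency genes, which both states express, 3 were higher and 2 lower at N16h (median 0.15), among them *Utf1* (1.74) and *Sox2* (−0.52). The medians of all genes were −0.24 at N16h and 0.09 at N72h. Among the 5 genes, *Zfp42* was thus closer at N16h to the general pluripotency genes than to the median of the naive factors, and at N72h it lay next to that median.

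Genes that work with the 5 markers moved in both directions. YY1, the founding relative of REX1, and RLIM (RNF12), the ubiquitin ligase that targets REX1 for degradation, are the tested members of the REX1 list, and *Rlim* rose at N16h (log2 0.32) and N72h (1.05), and in CHp2 (1.09). Of the genes of the TCL1 list, *Akt2* (−0.59) and *Akt1* (−0.49) fell at N16h, and *Akt1* rose at N72h (0.92). Of 11 genes of threonine and glycine use above 1 FPKM, 6 fell at N16h, among them *Gcat* (−0.85), which acts directly after TDH, and *Gcsh* (−0.84) of the glycine cleavage system, beside the 41.0% of all genes called lower there, and the list median of −0.36 lay near the −0.24 of all genes. At N72h 5 rose, led by *Gldc* (1.34) and *Mthfd2* (1.16), and 4 fell, led by *Shmt1* (−1.21) and *Amt* (−1.04), beside 34.1% and 22.8% of all genes (median 0.20). Of the genes of phosphate and vitamin B6 handling, which shares substrates with ALPL, *Slc20a1* rose (0.59) and *Pdxk* fell (−1.41) at N16h, and 2 rose, led by *Ank* (1.26), while *Pdxk* fell (−0.70) at N72h. Among 8 DPPA3 partners and DPPA genes at N72h, *Tet3* rose (1.74) and 5 fell, led by *Tet2* (−2.70) and *Dppa5a* (−2.39), whereas at N16h *Dppa4* (1.19) and *Dppa2* (1.08) were among 3 that rose and *Dppa5a* fell (−0.28).

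Loss of *Rbpj* was compared with RGd2 in 2i and at N16h. In 2i, 2 of the 5 genes were lower, where 7.44% of all genes were called lower and 5.47% higher (median −0.06), and nearly all of the difference was in *Dppa3*. *Dppa3* had 1, 2 and 10 reads in the 3 *Rbpj*-KO lines, or 2.10, 1.79 and 8.41 normalized counts, against 137, 123 and 24.2 in RGd2 2i. The groups did not overlap and the level was 4.33% of RGd2 2i (log2 −4.62, SE 0.53, adjusted p = 6.59e-09). The value lay between −5.89 without *Rbpj*-KO replicate 30 and −4.13 without replicate 29. *Alpl* had 10489, 8831 and 9140 against 14210, 11405 and 13264 (−0.45, SE 0.13, adjusted p = 0.0133), a call lost without RGd2 replicate 31 (adjusted p = 0.0912) and without *Rbpj*-KO replicates 29 (0.0801) or 30 (0.0662). *Zfp42* was 9241, 9647 and 9572 against 11681, 9865 and 7264, with a difference of −0.03 (interval −0.25 to 0.19, adjusted p = 0.909), and *Tcl1* (0.23, interval −0.02 to 0.47, adjusted p = 0.279) and *Tdh* (−0.13, interval −0.35 to 0.08, adjusted p = 0.511) were not called, *Tcl1* being called higher with TMM (0.31, adjusted p = 0.0350) and *Zfp42* turning sign (0.03). In these libraries the neural sum was 35.2 to 36.6 FPKM against 48.1 to 57.4 in RGd2 2i and the mesendoderm sum 12.7 to 16.3 against 8.23 to 11.7. Within the neural list *Tubb3* was lower (mean 22.8 against 48.6) and *Nes* higher (12.6 against 2.57). Within the mesendoderm list *Eomes* was higher (11.1 against 3.47) and *T* lower (2.41 against 4.72). The part of these lists in the values was not tested.

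At N16h *Rbpj*-KO cells kept more *Tdh* and *Tcl1* than RGd2 cells, and had almost no *Dppa3*: 2 of the 5 genes were higher and 1 lower, where 20.4% of all genes were called higher and 3.83% lower (median 0.14). *Tdh* had 6563, 6182 and 7245 normalized counts against 4071, 3914 and 4301 (log2 0.70, SE 0.11, adjusted p = 5.36e-06), with no overlap. *Tcl1* had 630, 583 and 540 against 496, 485 and 328, also apart, but the call (0.40, SE 0.14, adjusted p = 0.0355) was lost with TMM (0.25, adjusted p = 0.106) and without RGd2 replicate 24 (0.26, adjusted p = 0.233) or *Rbpj*-KO replicates 19 (0.34, adjusted p = 0.166) or 20 (0.41, adjusted p = 0.0734). *Zfp42* (0.25, interval 0.03 to 0.47, adjusted p = 0.111) and *Alpl* (−0.02, interval −0.27 to 0.23, adjusted p = 0.950) were not called. *Dppa3* had 6, 0 and 0 reads against 42, 46 and 26 in RGd2 N16h (−3.43, SE 0.86, adjusted p = 0.00262). Without replicate 19, the library with the 6 reads, the mutant group was at 0, and set against a floor of 3 reads per library (4.0 normalized counts) *Dppa3* was at least 6.81-fold lower. Counting error alone is meant by that floor. Of the 12 naive factors, 10 were higher in *Rbpj*-KO N16h (median 0.68, *Tbx3* 1.55 and *Nanog* 1.39), and of the formative genes 8 were lower (median −0.64, *Lef1* −4.00 and *Pou3f1* −1.93). The sum of the primitive endoderm markers was 1.11 to 8.75 FPKM per library in *Rbpj*-KO N16h and 0.663 to 1.80 in RGd2 N16h. That of the neural markers was 31.6 to 32.5 and 16.5 to 20.8, and that of the germ cell markers 14 to 15.5 and 14 to 15.1. Within the neural list *Nes* was higher (mean 16.1 in *Rbpj*-KO N16h), while *Tubb3* had a lower mean (11.6 against 15.1). Of the 4 neural genes above 1 FPKM, 3 were called higher and 0 lower. The part of these lists in the values was not tested.

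Within *Rbpj*-KO, 16 h without inhibitors lowered *Tcl1* (log2 −1.28, adjusted p = 2.12e-10), *Tdh* (−1.49, adjusted p = 3.55e-14) and *Alpl* (−0.99, adjusted p = 6.35e-08), 3 of 5 genes where 16.4% of all genes were called lower (median −0.04). *Zfp42* was at 0.11 (interval −0.11 to 0.33, adjusted p = 0.541). The response was weaker than in RGd2 for *Tdh*, by a difference of responses of 0.84 (SE 0.16, adjusted p = 6.49e-04), which was 0.64 with TMM. That was the 1 gene of the 5 called there, where 4.60% of all genes were called with a higher response (median 0.21). The differences of responses were 0.28 for *Zfp42* (adjusted p = 0.347), 0.17 for *Tcl1* (adjusted p = 0.638), 0.43 for *Alpl* (adjusted p = 0.188) and 1.19 for *Dppa3* (interval −2.02 to 4.40), and *Zfp42* was called without RGd2 2i replicate 33 (0.43, adjusted p = 0.0329). The counts of *Dppa3* in *Rbpj*-KO cells were too low for a change with time to be detectable.

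Among the 5 genes, *Tcl1* differed most in *Etv5*-KO cells. In 2i, 1 of the 5 genes was higher and 3 were lower, where 6.41% of all genes were called higher and 33.5% lower (median −0.22). *Tcl1* had 3512, 3150 and 3046 normalized counts in the 3 *Etv5*-KO lines against 1388, 1191 and 957, more than in any RGd2 library (log2 1.41, SE 0.12, adjusted p = 1.67e-12). *Zfp42* and *Tdh* were called lower at values near the median gene. *Zfp42* (8074, 7852 and 7286; −0.33, adjusted p = 0.0206) overlapped with RGd2, and *Tdh* (18171, 16274 and 15474; −0.30, adjusted p = 0.0289) did not. Both calls were lost with TMM (−0.08 and −0.09) and without RGd2 replicate 31 (adjusted p = 0.345 and 0.145) or *Etv5*-KO replicate 27 (adjusted p = 0.0868 and 0.119), that of *Zfp42* also without RGd2 replicate 32 (adjusted p = 0.0545) and that of *Tdh* without *Etv5*-KO replicate 26 (adjusted p = 0.0773). *Dppa3* had 78.0, 51.5 and 53.6 against 137, 123 and 24.2 (−0.94, SE 0.28, adjusted p = 0.00754), with the RGd2 replicate 33 below all mutant lines. This call was lost with DESeq2 (−0.68, adjusted p = 0.393), with TMM (−0.66, adjusted p = 0.0915) and without RGd2 replicate 31 (adjusted p = 0.122). *Alpl* was not called (0.09, interval −0.16 to 0.33, adjusted p = 0.619), except with TMM (0.31, adjusted p = 0.0269). Per library the neural sum was 24.4 to 27.3 FPKM against 48.1 to 57.4. The mesendoderm sum was 3.95 to 4.17 against 8.23 to 11.7. Within the neural list *Tubb3* was lower (mean 24.6 against 48.6) and *Sox1*, below 1 FPKM, higher (0.329 against 0.147). Of the mesendoderm markers *T* was lower (0.221 against 4.72), while *Eomes* was at 2.93 and 3.47. The part of these lists in the values was not tested.

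At N16h *Etv5*-KO cells had more of 4 of the 5 transcripts than RGd2 cells, where 33.3% of all genes were called higher and 4.06% lower (median 0.23). *Zfp42* had 14017 and 14517 normalized counts in the 2 libraries against 8622, 8947 and 8267 (log2 0.73, SE 0.12, adjusted p = 7.59e-06). *Tcl1* had 1392 and 1344 against 496, 485 and 328 (1.62, SE 0.14, adjusted p = 1.41e-12), and *Tdh* 6500 and 6304 against 4071, 3914 and 4301 (0.65, SE 0.12, adjusted p = 6.45e-05). The groups lay apart for each of these genes and for *Alpl*, with 5943 and 6904 against 5157, 4843 and 4456 (0.41, adjusted p = 0.0215), a call that was lost with TMM (0.17, adjusted p = 0.301) and without RGd2 replicate 24 (0.37, adjusted p = 0.0764) or *Etv5*-KO replicate 18 (0.31, adjusted p = 0.276). *Dppa3* had 18.3 and 14.8 against 31.1, 24.0 and 26.6 (−0.70, interval −1.73 to 0.33, adjusted p = 0.331). All 12 naive factors were higher in this comparison (median 1.06, *Tbx3* 2.67 and *Nanog* 1.79) and 8 formative genes were lower (median −0.53, *Lef1* −2.32 and *Pou3f1* −1.61). The trophoblast sum was 3.30 to 3.46 FPKM per library against 1.35 to 1.5. The mesendoderm sum was 3.23 to 3.59 against 1.63 to 2.10 and the neural sum 24.2 to 24.5 against 16.5 to 20.8. Of the mesendoderm markers *Eomes* was higher (mean 2.85 against 1.52), while *T* was at 0.281 and 0.284. Within the neural list *Tubb3* was higher (21.7 against 15.1), while *Pax6* (0.471 against 1.45) and *Nes* had lower means. Of the 4 neural genes above 1 FPKM, 1 was called higher and 1 lower. The part of these lists in the values was not tested.

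Within *Etv5*-KO cells *Zfp42* did not fall but rose at N16h, from 8074, 7852 and 7286 to 14017 and 14517 (log2 0.88, SE 0.12, adjusted p = 9.20e-08), while *Tcl1* (−1.24, adjusted p = 1.42e-10), *Tdh* (−1.38, adjusted p = 6.73e-12), *Alpl* (−1.10, adjusted p = 4.23e-08) and *Dppa3* (−1.89, adjusted p = 5.54e-04) fell. That was 1 gene higher and 4 lower, where 35.3% of all genes were called higher and 10.5% lower (median 0.20). The difference of responses between *Etv5*-KO and RGd2 was 1.05 for *Zfp42* (SE 0.16, adjusted p = 4.69e-06) and 0.95 for *Tdh* (SE 0.16, adjusted p = 2.75e-05), 2 of 5 genes where 45.5% of all genes were called with a higher response and the median was 0.45. With TMM, which removes that shift, both stayed called at 0.57 (adjusted p = 2.54e-04) and 0.49 (adjusted p = 0.0124). *Tcl1* (0.21, adjusted p = 0.357), *Alpl* (0.33, adjusted p = 0.169) and *Dppa3* (0.24, adjusted p = 0.787) were not called and turned sign with TMM (−0.27, −0.13 and −0.28). *Tcl1* in *Etv5*-KO cells thus fell from a higher start, and the interval for its difference of responses was −0.14 to 0.57.

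**Figure D3:**
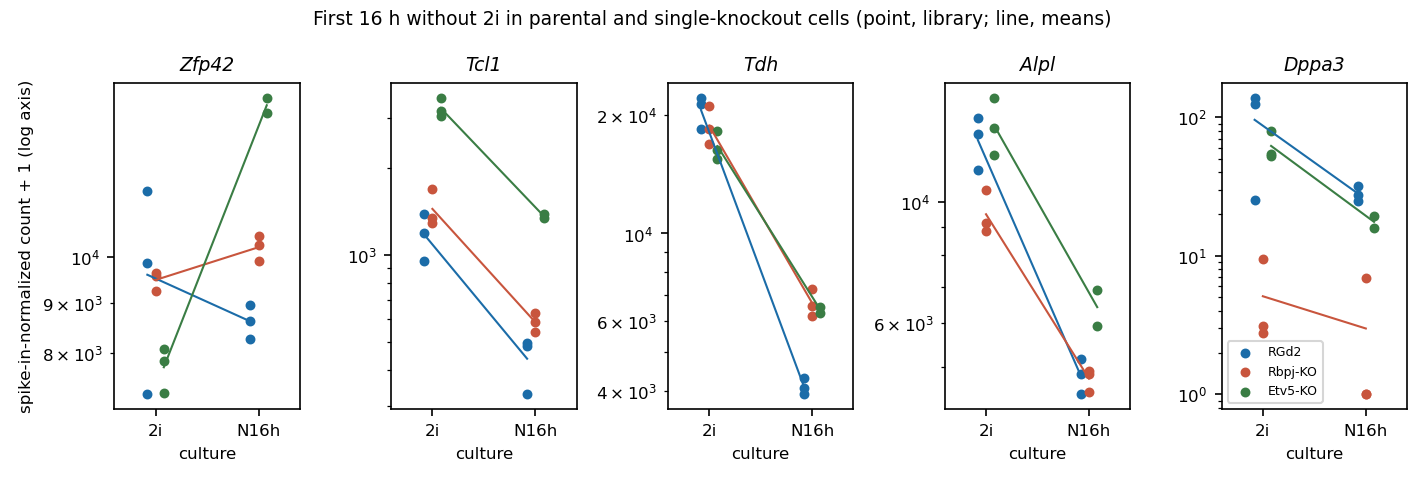
Normalized count plus 1 (log axis) of the 5 genes in 2i and at N16h for RGd2, *Rbpj*-KO and *Etv5*-KO, with a point for each library and lines through the means. *Zfp42* is called higher at N16h only in *Etv5*-KO (14017 and 14517), *Tcl1* falls in all genotypes from a higher start in *Etv5*-KO, and *Dppa3* is near 0 in *Rbpj*-KO.

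ER-dKO cells were maintained in CH alone and are set beside RGd2 in 2ip5 and in CHp2. Against CHp2, which has the same inhibitor at another passage, 3 of the 5 genes were higher and 1 lower, where 29.0% of all genes were called higher and 21.9% lower (median 0.09). *Tcl1* had 1850, 1951 and 1938 normalized counts against 113, 139 and 103 (log2 3.98, SE 0.17, adjusted p = 2.40e-22), *Zfp42* 9877, 9612 and 9827 against 4021, 3620 and 3253 (1.43, SE 0.12, adjusted p = 6.86e-14), and *Tdh* 16124, 15464 and 16660 against 7965, 7580 and 7963 (1.04, SE 0.11, adjusted p = 1.84e-10). In each, every ER-dKO line exceeded every RGd2 library. *Alpl* had 7989, 7351 and 7227 against 7146, 6689 and 6444 (0.15, interval −0.10 to 0.41, adjusted p = 0.340). *Dppa3* had 4, 12 and 3 reads, or 2.68, 4.49 and 2.43 normalized counts, against 170, 123 and 220 (−5.51, SE 0.46, adjusted p = 3.92e-14). In the same comparison 11 of 12 naive factors were higher (median 1.46, *Klf4* 3.18 and *Tbx3* 2.5) and 8 of 12 formative genes lower (median −1.27, *Pou3f1* −5.86 and *Lef1* −5.10), and *Akt1* was lower (−1.57). The mesendoderm sum was 14.6 to 16.4 FPKM per library against 69.9 to 73.4 in CHp2 and the germ cell sum 6.71 to 7.25 against 19.2 to 20.8. Of the mesendoderm markers *T* was lower (mean 4.65 against 69.1) and *Eomes* higher (10.3 against 1.91). The part of these lists in the values was not tested.

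Against 2ip5, ER-dKO cells in CH had 2 of the 5 genes higher and 1 lower, where 35.0% of all genes were called higher and 8.87% lower (median 0.21). *Zfp42* (log2 0.49, SE 0.11, adjusted p = 5.28e-04) and *Tcl1* (1.13, SE 0.12, adjusted p = 1.14e-09) were higher with no overlap. *Tdh* was at 0.05 (interval −0.16 to 0.27, adjusted p = 0.754), with a sign that turned under TMM (−0.12), and *Alpl* at −0.16 (interval −0.41 to 0.08, adjusted p = 0.337), called lower with TMM (−0.33, adjusted p = 0.0139). *Dppa3* was at 1.91% of 2ip5 (−5.52, SE 0.44, adjusted p = 5.28e-14), between −5.95 and −5.40 when any of the compared libraries was left out. Both comparisons share the ER-dKO libraries. Among the 8 DPPA3 partners and DPPA genes 7 were higher in ER-dKO than in 2ip5 (median 0.30, *Tet3* 1.21 and *Tet1* 0.53), and of 7 general pluripotency genes 6 were higher (median 0.46). The germ cell sum was 6.71 to 7.25 FPKM per library in ER-dKO and 20.2 to 25.9 in 2ip5, and the mesendoderm sum 14.6 to 16.4 and 8.84 to 10.1. The mesendoderm difference was in *Eomes* (mean 10.3 and 2.64), while *T* was at 4.65 and 5.81. The part of these lists in the values, that of *Dppa3* included, was not tested.

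ETR-tKO cells, 5 passages without inhibitors, were compared with RGd2 cells 72 h without them and with 2ip5. Against N72h 4 of the 5 genes were higher, where 36.8% of all genes were called higher and 24.8% lower (median 0.11). *Tcl1* had 1301, 1647 and 1601 normalized counts against 14.5, 17.2 and 22.5 (log2 6.30, SE 0.22, adjusted p = 5.38e-26), and *Zfp42* 7773, 10038 and 9781 against 505, 536 and 512 (4.15, SE 0.13, adjusted p = 8.57e-27). *Tdh* had 6609, 9657 and 9672 against 1004, 1127 and 1136 (2.99, SE 0.12, adjusted p = 2.06e-23), and *Alpl* 2195, 3825 and 3870 against 512, 459 and 507 (2.73, SE 0.15, adjusted p = 3.37e-19). *Dppa3* had 56.4, 7.52 and 15.1 against 16.6, 17.2 and 15.8, so that the RGd2 values fell within the spread of the mutant lines (0.90, interval −0.06 to 1.86, adjusted p = 0.117). Here 1 line decided the value. Without replicate 13 it was −0.45, and without replicate 14 or 15 *Dppa3* was called higher (1.23, adjusted p = 0.0250, and 1.22, adjusted p = 0.0361). The trophoblast sum was 16.3 to 26.6 FPKM per library in ETR-tKO and 0.679 to 0.784 at N72h, the mesendoderm sum 6.68 to 11.3 and 0.670 to 0.959 and the primitive endoderm sum 0.814 to 1.14 and 4.46 to 14.1. In ETR-tKO nearly all of the trophoblast sum was *Tfap2c* (mean 19.5) and nearly all of the mesendoderm sum *Eomes* (8.71). *Cdx2* (0.0462 and 0.0404 at N72h) and *T* (0.158 and 0.117) were near 0 in both. The part of these lists in the values was not tested.

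Against 2ip5 the 5 genes split in ETR-tKO, with 2 higher and 3 lower where 38.0% of all genes were called higher and 10% lower (median 0.22). *Zfp42* (log2 0.40, SE 0.11, adjusted p = 0.00345) and *Tcl1* (0.78, SE 0.13, adjusted p = 2.58e-06) were higher. *Tdh* (−0.84, SE 0.11, adjusted p = 3.92e-08) and *Alpl* (−1.36, SE 0.13, adjusted p = 2.26e-11), the enzymes, were lower, and so was *Dppa3* (−2.43, SE 0.31, adjusted p = 1.59e-08), which reached −3.79 without replicate 13. None of the 5 genes had overlapping groups. Replicate 13 was the lowest ETR-tKO library for *Zfp42*, *Tcl1*, *Tdh* and *Alpl* and the highest for *Dppa3*, and is the line that does not share the clone prefix of the other two. Of the 12 naive factors, 6 were higher and 1 lower (median 0.28, *Klf4* 1.67, *Zfp57* 0.67 and *Prdm14* −0.59), all 7 general pluripotency genes were higher (median 0.67), and 7 of 10 formative genes above 1 FPKM were higher (median 1.36). Of the lists around the enzymes, 4 genes of threonine and glycine use were higher and 3 lower, and of phosphate and vitamin B6 handling 2 were higher, led by *Ank* (2.71), and *Pdxk* was lower (−1.0). The sum of the neural markers was 67.4 to 70.7 FPKM per library in ETR-tKO and 23.4 to 25.8 in 2ip5, that of the germ cell markers was 7.59 to 11.6 and 20.2 to 25.9, and their part in these values, that of *Dppa3* included, was not tested.

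**Figure D4:**
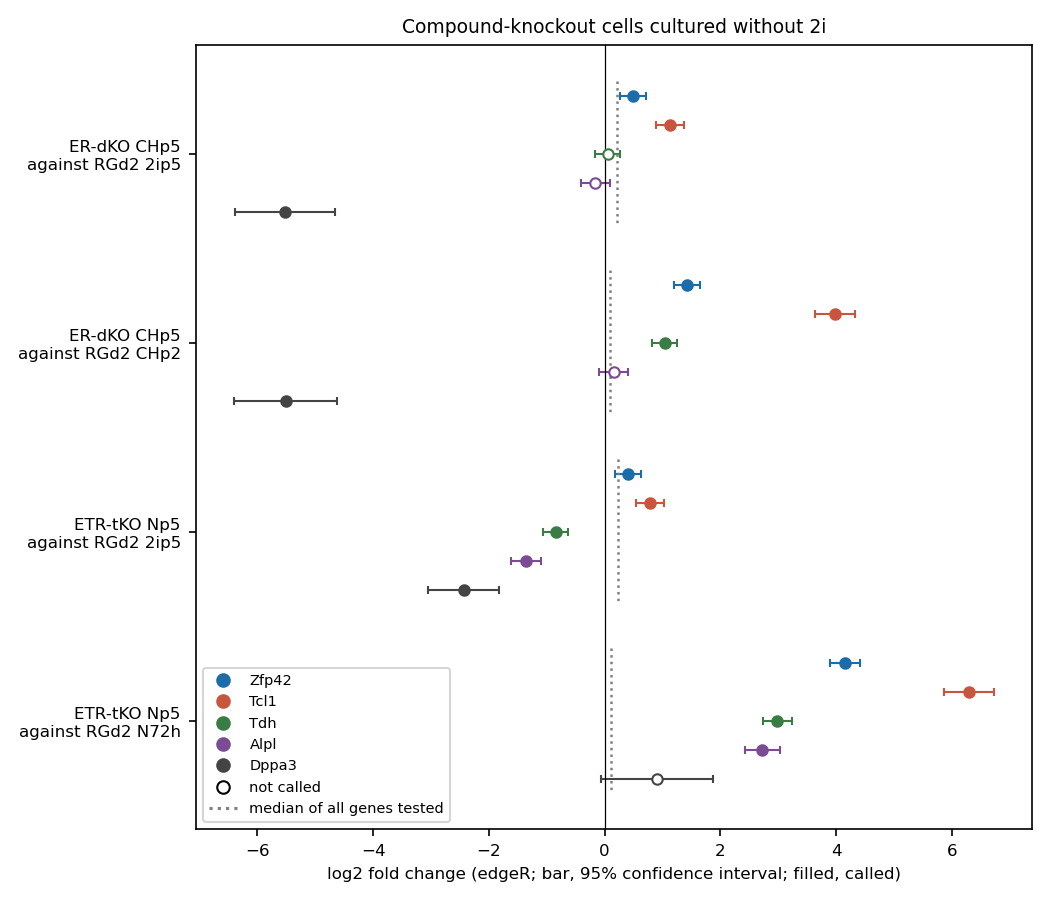
Log2 fold change with 95% interval of the 5 genes in ER-dKO and ETR-tKO cells against RGd2 references, with filled points for called genes. *Tcl1* reaches 6.30 in ETR-tKO against N72h, *Tdh* and *Alpl* lie below 0 in ETR-tKO against 2ip5 (−0.84 and −1.36), and *Dppa3* lies near −5.5 in both comparisons of ER-dKO.

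*Dppa3* lies in a cluster of pluripotency genes on chromosome 6, 16323 bases from *Gdf3*, which encodes a TGFβ family ligand, and 77217 bases from *Nanog*. Neither *Gdf3* nor *Nanog* shared the fall of *Dppa3* in *Rbpj* mutants. In *Rbpj*-KO 2i, where *Dppa3* was at −4.62 (log2), *Gdf3* was at −0.17 (adjusted p = 0.342) and *Nanog* at 0.22 (adjusted p = 0.179). At N16h the corresponding values were −3.43, 0.24 (adjusted p = 0.103) and 1.39 (adjusted p = 1.06e-13). In ER-dKO against 2ip5 they were −5.52, 0.15 (adjusted p = 0.270) and 0.27 (adjusted p = 0.0327), and in ETR-tKO against 2ip5 −2.43, 0.35 (adjusted p = 0.00772) and 0.35 (adjusted p = 0.00578). By contrast all 3 genes were lower at N72h against 2ip5, at −3.34, −1.28 and −3.31, and so was *Gm10224* (−3.72), 68142 bases away. The values of *Gm10224* in the mutants are not reported here. The pseudogene *Dppa3-ps* had 0 counts in all libraries. The mutant libraries without *Rbpj* held between 0 and 93 reads on *Dppa3*, so that the size of its fall rests on few reads. *Dppa3* was lower in *Rbpj*-KO than in RGd2 in 2i and at N16h, in ER-dKO than in 2ip5 and CHp2, and in ETR-tKO than in 2ip5. The comparisons with 2ip5 also differ in medium, which cannot be told apart from genotype. In ETR-tKO against N72h *Dppa3* was not called (0.90, adjusted p = 0.117). In *Etv5*-KO 2i, where *Rbpj* was not targeted, it was called lower (−0.94, adjusted p = 0.00754), a call lost in some settings.

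**Figure D5:**
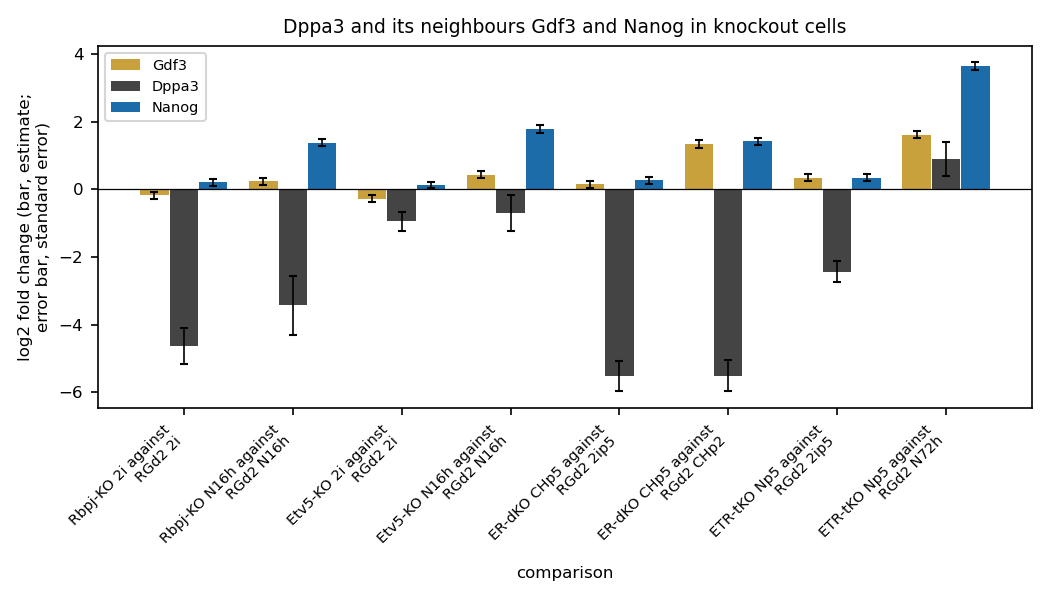
Log2 fold change with standard error of *Gdf3*, *Dppa3* and *Nanog*, neighbours on chromosome 6, in 8 comparisons of mutant with RGd2 cells. The bars of *Dppa3* reach −4.62 in *Rbpj*-KO 2i and −5.52 in ER-dKO against 2ip5, where *Gdf3* is at −0.17 and 0.15.

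Genes beside the other markers were of mixed direction at N72h against 2ip5. *Triml2*, 101182 bases from *Zfp42*, fell (log2 −1.54) and *Fat1* on the other side rose (0.69). Beside *Tcl1*, *Glrx5* was at 0.02 and not called and *D430019H16Rik* rose (2.47). *Gata4* (2.45), an endoderm factor, and *Mtmr9* (0.55) rose on either side of *Tdh*, and beside *Alpl* *Rap1gap* fell (−1.02) and *Ece1* rose (1.12).

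Over the 11 condition means the markers formed pairs. Pearson's r of mean log2 levels was 0.918 for *Tdh* with *Alpl* and 0.888 for *Zfp42* with *Tcl1*, 0.730 to 0.830 for the other pairs of these 4 genes, and −0.163 to 0.225 for *Dppa3* with the rest. These values are descriptions, since the 11 points share libraries, spike-in scaling and the low N72h condition. Among 13343 genes the pattern most like that of *Zfp42* belonged to *Hspb1* (0.988), *Folr1* (0.987) and *Gm14820* (0.986), and that of *Tcl1* to *Jam2* (0.990), *Akap1* and *Mynn* (both 0.978). For *Tdh* the nearest were *6330403L08Rik* (0.987), *Ism2* (0.982) and *Plagl1* (0.980), and for *Alpl* *Fastkd3* (0.967), *Hspa13* (0.960) and *Lncenc1* (0.949). *Dppa3* had no gene as near, the closest being *Glrx2* (0.902), *Gm22442* (0.892) and *Lzts1* (0.885).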

How the data were processed

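RNA-seq libraries were analyzed from 32 samples in 11 conditions. Per the study's methods, RNA was depleted of ribosomal RNA, mixed with ERCC spike-ins and sequenced as strand-specific libraries, and the authors ran Trim Galore on the reads, TopHat2 against GRCm38/mm10 extended by the ERCC sequences, and featureCounts for strand-specific primary matches per gene. The deposited table holds these raw counts for 51826 genes and 92 spike-ins, and the gene lengths in it (other values) were used as deposited for FPKM. Gene IDs without a symbol (193) held 0.0259% of counts. The study's methods name RGd2 N16h as the group with 2 replicates and the labels *Etv5*-KO N16h, and the labels were followed.

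The genes and the lists (naive transcription factors, formative genes, general pluripotency genes, REX1 family and regulator, TCL1 family and AKT kinases, threonine and glycine use, alkaline phosphatases with phosphate and vitamin B6, DPPA3 partners, and cell type markers) were chosen with earlier results of these data known. Named are the 5 genes in every comparison, at most the 2 called genes per direction of a list with the largest change, the 3 genes most like each in pattern (log2 of spike-in-scaled CPM plus 0.1), adjacent genes above the FPKM minimum with *Nanog*, and the targeted genes. Cell type markers are named for some of the sums only. Where none is named, single markers could still differ in direction from the sum. Of the TCL1 and AKT list 5 of 9 genes and of the REX1 list 2 of 3 passed the filter on low counts, and some genes of these lists are not reported here.

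Counts were fitted in R 4.3.3 with edgeR 4.0.16 (quasi-likelihood F test, two-sided) in 1 model of all libraries, with size factors from 52 spike-ins above 0 in every library (median of ratios), filterByExpr (18892 genes tested) and Benjamini-Hochberg adjustment over all genes tested, which names the method of every adjusted p. Differences of responses are contrasts of contrasts. Sequences came from RefSeq windows before the start site. The steps were tested on simulated data. Depth ranged from 5986857 to 71439411 gene counts. Replicates differed by a chi-square per gene of 3.391 to 44.33 (genes with at least 20 counts), where counting noise gives about 1, so none was a repeated library and replicate spread set the precision.

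Libraries of the same cell line pair samples across conditions, since the labels give the clone of each library. The correlation of deviations of libraries of the same line was 0.0467 to 0.156 in *Rbpj*-KO, −0.0153 and 0.0244 in *Etv5*-KO and 0.109 to 0.229 in RGd2 between 2i and N16h. The alternatives were TMM normalization, size factors from the genes or the total spike-in count, no low-count filter, no FPKM minimum, a model of only the compared groups, DESeq2 1.42.0 with the spike-in factors, the line as replicate block, RGd2 2i as reference and leaving out each library. Figures were drawn with matplotlib 3.10.9.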

Additional observations from a re-analysis of the deposited data

Results flagged for a closer look

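For 3 results the response to 16 h without inhibitors differed between a mutant and RGd2 cells by a test of the difference itself (edgeR's quasi-likelihood test). The response of *Tdh* differed by 0.84 (log2) in *Rbpj*-KO, from −2.33 in RGd2 to −1.49, with all 3 lines between 6182 and 7245 normalized counts at N16h and all RGd2 libraries at 4301 or less. The response of *Zfp42* differed by 1.05 in *Etv5*-KO, from −0.17 to 0.88, with both lines at N16h above all RGd2 libraries. The response of *Tdh* differed by 0.95 in *Etv5*-KO, from −2.33 to −1.38. The median gene's response differed by 0.21 in *Rbpj*-KO and by 0.45 in *Etv5*-KO. With TMM normalization these values were 0.64, 0.57 and 0.49, and all remained called.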

How the results depend on the processing

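Scaling was the choice with the most effect. With TMM 65 of 85 results were unchanged, with size factors from the genes 65, with DESeq2 82 and with no low-count filter 83. With the total spike-in count or no FPKM minimum all 85 were unchanged. In a model of only the compared groups 76 were unchanged, 5 lost their call and 3 gained one, and not every result could be tested there. The cause of the changes was not tested.

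The number of the 5 genes called went from 4 to 2 with TMM, 1 with gene size factors and 2 in a model of only the compared groups, both for 2ip5 against 2i and for *Etv5*-KO in 2i, and from 2 to 1 in the last setting for *Rbpj*-KO in 2i. Leaving out a library gave 1 to 4 for *Etv5*-KO in 2i, 1 to 2 for *Rbpj*-KO in 2i and 1 to 2 for the *Rbpj*-KO difference of responses.

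Signs turned with TMM and gene size factors for *Zfp42* at N16h (0.064, 0.069) and in *Rbpj*-KO 2i (0.035, 0.016), *Tdh* in ER-dKO against 2ip5 (−0.12, −0.16), *Tcl1* in the differences of responses of *Rbpj*-KO (−0.056, −0.037) and *Etv5*-KO (−0.27, −0.24), and in the latter *Alpl* (−0.13, −0.085) and *Dppa3* (−0.28, −0.26, and −0.038 with DESeq2). None of these was called under either setting. *Dppa3* in CHp2 was 0.026 with DESeq2. Leaving out a library gave ranges across 0 for *Zfp42* in *Rbpj*-KO 2i (−0.18 to 0.14), *Dppa3* in CHp2 (−0.23 to 0.24), *Alpl* in *Rbpj*-KO N16h (−0.071 to 0.024) and *Etv5*-KO 2i (−0.0015 to 0.17), and *Dppa3* in ETR-tKO against N72h (−0.45 to 1.23), within *Rbpj*-KO (−5.41 to 0.33) and in its difference of responses (−3.30 to 2.46).

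With the line as replicate block 43 of 44 results were unchanged and *Alpl* in CHp2 became called (−0.32), with no other call changed. Depth limits *Dppa3*, which had at most 10 reads per library in *Rbpj*-KO.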
